A study of Mus musculus with 4 samples.

Results

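The insulin-like growth factor (IGF) axis was described across 3T3-L1 cells on day 2 of adipocyte differentiation. Its members were the ligands Igf1 and Igf2, the receptors Igf1r and Igf2r, and the binding proteins Igfbp2 to Igfbp7. They were chosen by gene name, and 20 non-control probes carried 1 of these names on each array, for 10 of the 27745 distinct gene names. 3T3-L1 is an established mouse preadipocyte line, which a hormone cocktail turns into fat-storing adipocytes. All groups had been induced on day 0 with 10 μg/mL insulin, 1 μM dexamethasone and 0.5 μM IBMX in medium with fetal calf serum, and were exposed from day 0 to 100 μg/mL bilberry extracts, to 100 nM delphinidin, to 100 nM cyanidin or to the vehicle DMSO alone. The extract and both anthocyanidins were dissolved in DMSO, so all 4 groups received it, at 0.1% of the medium. Labeled RNA of each group was hybridized to 1 Agilent Whole Mouse Genome array, and all 4 arrays lay on 1 slide. There was 1 array per group, so the differences given here carry no replicate check, p-value or interval, and no effect of a treatment can be told apart from the spread between cultures. These are cultures of a single cell line, and a lower value in them cannot tell fewer cells of a type from less RNA per cell.

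IGF1 and IGF2 are secreted growth factors that act mainly through the IGF1 receptor, a tyrosine kinase closely related to the insulin receptor. The IGF2 receptor binds IGF2 and carries it to lysosomes, and it also sorts lysosomal enzymes that bear mannose 6-phosphate. The binding proteins hold the ligands outside the cell and set how much of them reaches the receptor. Preadipocytes make IGF1, and the insulin in induction cocktails is high enough to act on the IGF1 receptor as well as on the insulin receptor.

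The level of a probe is given as its processed signal divided by the 75th percentile of the signals of its array, so that a level of 1 is a signal at that percentile. A ratio is given as the log2 of the ratio of 2 such levels, and it was counted as past 2-fold where the probe was well above background on both arrays by the scanner software's own test. On all 4 arrays 17 of the 20 probes were detected, that is, well above background. The Igfbp3 probe A_52_P851352 and the Igfbp5 probe A_51_P204153 were so on none of the 4 arrays. The Igf1 probe A_52_P306327 was so only with DMSO. No spot of a member was saturated. Levels are not compared between probes, since each probe has its own affinity.

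The bilberry array stood apart from the others in its signals. Its 75th percentile was 576, against 861 with DMSO, 1009 with delphinidin and 1016 with cyanidin. The 9 spike-in control probes, which read RNA added from outside the cells, had a median unscaled log2 ratio of 0.94 with bilberry over DMSO, against -0.04 with delphinidin and 0.01 with cyanidin. The single control probes differed widely with bilberry, from 0.10 to 1.07. They ran from -0.10 to 0.15 with delphinidin and from -0.10 to 0.07 with cyanidin. Scaling to these controls in place of the 75th percentile moved the median log2 ratio of all probes with bilberry from 0.14 to -1.46, so every bilberry ratio below is relative to the other genes of its array. The part of this shift in the bilberry values was not tested. Of the marker genes, all 8 for adipocytes and all 8 for fibroblasts and preadipocytes were well above background on all 4 arrays, as were 2 of 4 for macrophages, 1 of 4 for muscle and 0 of 4 for endothelium. Of the 2 measured macrophage markers, 1 was higher past 2-fold with bilberry, where 4.71% of all measured genes were, and 0 with delphinidin or cyanidin. The DMSO level of that marker, 0.0172, was close to the lowest level well above background on that array, 0.0151. It is thus not read as a marker change.

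The median log2 ratio of the 8 adipocyte markers was 0.09 for bilberry, 0.13 for delphinidin and 0.37 for cyanidin, with 5, 6 and 7 of the 8 above 0. That of the 8 fibroblast and preadipocyte markers was -0.06, -0.06 and -0.23, with 3, 4 and 0 above 0. Over all measured genes, each by its brightest probe, the medians were 0.17, -0.05 and -0.02 in the same order. With bilberry the adipocyte median was thus below that of all genes. No share of all genes above 0 is given beside these counts. The summed level of the adipocyte markers was 392 for DMSO, 272 for bilberry, 428 for delphinidin and 464 for cyanidin. Fabp4, a fatty acid carrier of adipocytes, was at 265 with DMSO and 137 with bilberry, a larger difference than that of the sum. Lpl, the lipase that frees fatty acids from lipoproteins, was at 95.6 with DMSO, 159 with delphinidin and 164 with cyanidin, so single bright probes carry much of these sums. The summed level of the fibroblast and preadipocyte markers was 845, 961, 805 and 741. Of the 16 markers, Thy1, a surface protein of fibroblasts (-1.20), and Adipoq, the hormone adiponectin (-1.07), passed 2-fold with bilberry. Of all measured genes 11.4% did so, and this count is near that share. With delphinidin and cyanidin 0 did so, against 3.24% and 3.05% of all measured genes, and Thy1 was at -0.94 and -0.87. The part of the markers in the member values was not tested.

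**Figure D1:**
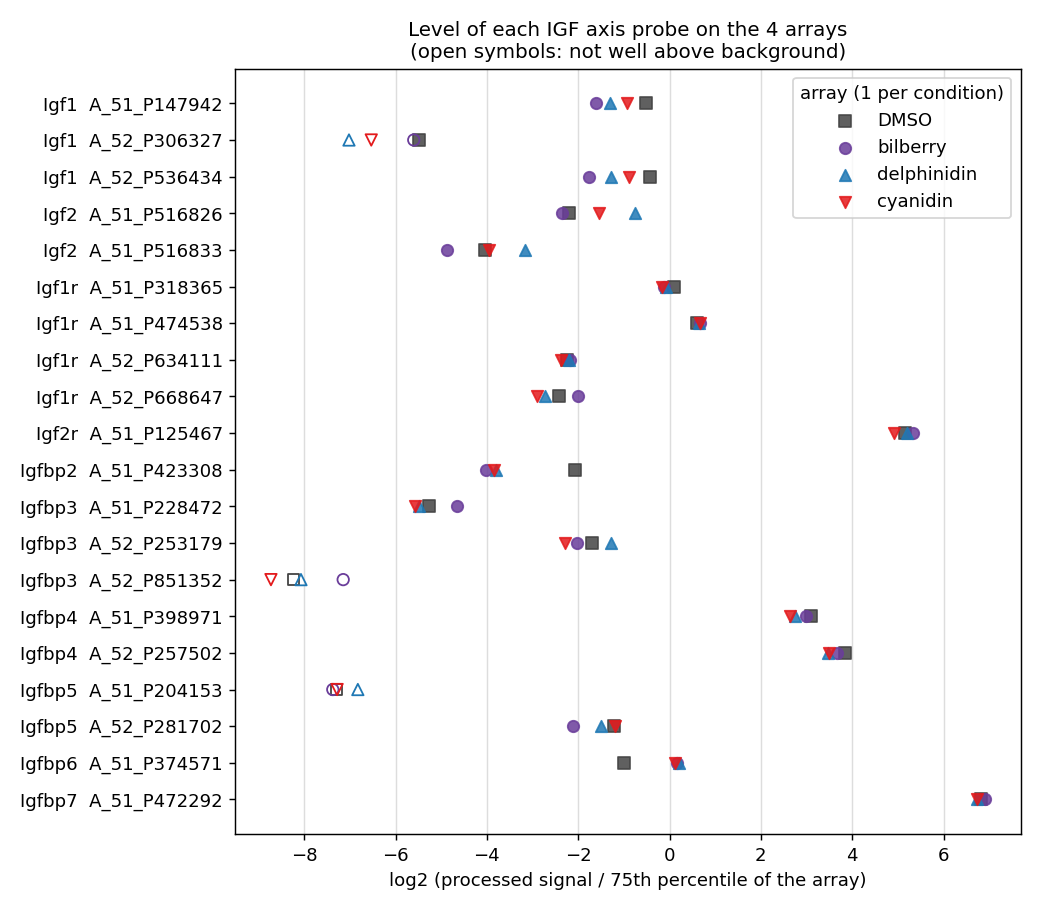
Level of each of the 20 probes (vertical axis) on the 4 arrays, as log2 of the processed signal over the 75th percentile of the array (horizontal axis). Squares stand for DMSO, circles for bilberry, upward triangles for delphinidin and downward triangles for cyanidin, with open symbols where the probe was not well above background; the DMSO squares of Igfbp2 (0.240) and Igfbp6 (0.500) stand apart from the other 3 symbols of their rows.

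Against DMSO, Igfbp2 was lower and Igfbp6 higher past 2-fold in each of the 3 treatments, and the ligand probes past 2-fold differed in direction. The 3 comparisons share the DMSO array, so passing in all 3 does not count as 3 separate results. No share of all probes past 2-fold in all 3 is given, so the joint passing is not read as particular to the members. Igfbp2 was lower with each treatment, by 3.35-fold to 3.89-fold. After normexp background correction with an added offset of 50, its log2 ratios shrank to between -0.97 and -1.19, and the bilberry value no longer passed. The correction and the offset were not tested apart. Igfbp6 was higher with each treatment, by 2.18-fold to 2.31-fold, except that its bilberry value was below 0 under spike-in scaling (log2 ratio -0.44). Igf1 was lower with bilberry past 2-fold on both of its measured probes, and on 1 of them after normexp correction. Igf2 was higher with delphinidin past 2-fold on 1 of its 2 probes, and on both after quantile normalization or spike-in scaling, while normexp correction lowered the second probe from 0.88 to 0.43 on the log2 ratio scale. Of the receptors, 0 of 5 probes passed 2-fold under the main scaling, where 11.2% of all measured probes did so for bilberry, 2.93% for delphinidin and 2.84% for cyanidin, so a count of 0 is near the background.

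The promoters of Igfbp2, Igf1 and Igfbp6 are shown because these genes had probes past 2-fold against DMSO in the directions just given. Igf2 did so too, but it has 4 listed starts that its probes cannot tell apart, so its windows are given by their matches only. Each is the 250 bases before a transcription start in RefSeq on GRCm38.p6, 5′ to 3′ on the strand of the gene, which for these 3 genes is the plus strand. They lie at chr1:72824230-72824479 for Igfbp2 (the first of 2 listed starts), chr10:87860861-87861110 for Igf1 and chr15:102143936-102144185 for Igfbp6. Capitals mark matches on either strand to 5 motifs: the TATA box TATAAA, the GC box GGGCGG, the xenobiotic response core GCGTG, the antioxidant response core TGACNNNGC and the cAMP response half-site TGACG, which can lie inside the antioxidant core.
Igfbp2: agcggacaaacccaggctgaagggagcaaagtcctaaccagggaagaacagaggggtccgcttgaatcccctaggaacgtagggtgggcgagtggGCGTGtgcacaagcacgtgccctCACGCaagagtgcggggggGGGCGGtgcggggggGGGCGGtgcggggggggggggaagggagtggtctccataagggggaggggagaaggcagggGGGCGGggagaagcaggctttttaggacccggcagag
Igf1: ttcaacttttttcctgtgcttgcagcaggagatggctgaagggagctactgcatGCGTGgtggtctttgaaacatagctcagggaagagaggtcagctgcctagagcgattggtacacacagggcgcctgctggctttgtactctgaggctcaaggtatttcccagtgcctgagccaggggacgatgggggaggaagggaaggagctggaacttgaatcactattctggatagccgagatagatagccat
Igfbp6: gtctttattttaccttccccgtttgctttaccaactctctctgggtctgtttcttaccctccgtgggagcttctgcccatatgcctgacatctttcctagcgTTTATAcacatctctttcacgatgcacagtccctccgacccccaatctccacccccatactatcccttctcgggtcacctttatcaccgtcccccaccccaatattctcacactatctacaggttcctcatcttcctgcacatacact
The Igfbp2 window held 3 GC boxes and 2 xenobiotic response cores, and the window before its other start held no match. The Igf1 window held 1 xenobiotic response core. In the Igfbp6 window the TATA box letters occurred 1 time, on the opposite strand. Of the 4 Igf2 windows, 2 held GC boxes, 1 held the cAMP half-site and 0 held a xenobiotic response core. These matches describe the letters only.

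Over the 14 listed starts of the 10 genes, the GC box was present in 6 windows, where 32.7% of 32851 promoters of the same length held it. The xenobiotic response core was likewise in 6 of the 14, against 28.2% of all. The TATA box was in 2 of 14 against 12.4% of all, and the cAMP half-site was in 2 of 14 against 17.8%. The antioxidant response core was in 0 of 14 against 10.2%.

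Igf1 is the ligand that preadipocytes and adipocytes secrete and that sustains their growth and differentiation. Its probe A_51_P147942 (mm8, chromosome 10, 87360570 to 87360629, plus strand) was spotted 10 times on each array. The mean level was 0.696 in DMSO-treated cells, 0.329 for bilberry, 0.407 for delphinidin and 0.526 for cyanidin. On the log2 scale these are -0.52 ± 0.027 (SD over 9 spots), -1.60 ± 0.048 (9 spots), -1.30 ± 0.025 (9 spots) and -0.93 ± 0.043 (10 spots). The spots of any 2 arrays did not overlap, and the order from low to high was bilberry, delphinidin, cyanidin and DMSO. This SD covers spots of the same labeled RNA on 1 array and not the spread between cultures. No share of all probes spotted 10 times without overlap is given, so the separation of the spots is not read as a result about Igf1.

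The log2 ratios of this probe to DMSO were -1.08 for bilberry, -0.77 for delphinidin and -0.40 for cyanidin. The bilberry level was thus 2.11-fold lower than the DMSO level, and after normexp background correction the log2 ratio was -0.88, short of 2-fold. The second Igf1 probe, A_52_P536434 (chromosome 10, 87343472 to 87343531), lies 17038 bases away and had a single spot. Its levels were 0.743 for DMSO, 0.293 for bilberry, 0.413 for delphinidin and 0.539 for cyanidin, in the same order. It gave log2 ratios of -1.34, -0.85 and -0.46, so both probes had their lowest level with bilberry and their highest with DMSO.

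The share of all measured probes with a log2 ratio at or below that of Igf1 was 5.96% and 3.63% for these probes in the bilberry comparison, 3.67% and 2.97% in that of delphinidin, and 15.7% and 12.9% in that of cyanidin. The fold with bilberry was larger than with delphinidin, but the bilberry ratios of all probes were also more widely spread. The third Igf1 probe, A_52_P306327 (chromosome 10, 87292436 to 87292495), was well above background only with DMSO, at a level of 0.0224. Its DMSO level was at least 2.08-fold higher than with delphinidin and at least 2.07-fold higher than with cyanidin. For bilberry no fold can be given, since the lowest level that counted as well above background on that array was 0.0225.

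**Figure D2:**
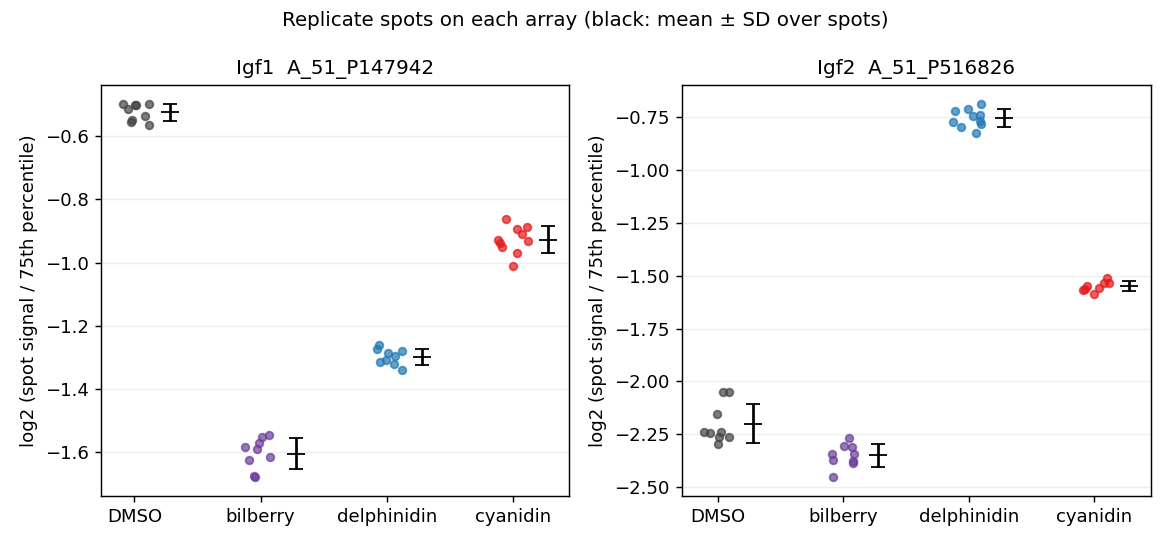
Replicate spots of the Igf1 probe A_51_P147942 and the Igf2 probe A_51_P516826 on each array (horizontal axis), as log2 of the spot signal over the 75th percentile of the array (vertical axis, with its own range in each panel). Points are spots, placed with random sideways shifts, and black marks are the mean ± SD over 8 to 10 spots; the Igf1 spots of the 4 arrays do not overlap, while the Igf2 spots of DMSO (from -2.30 to -2.05) and bilberry (from -2.45 to -2.27) do.

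Igf2 is an imprinted growth factor that is high in fetal tissue and in proliferating cells. Its probe A_51_P516826 (mm8, chromosome 7, 142460185 to 142460245, minus strand) was also spotted 10 times. The mean level was 0.218 for DMSO, 0.196 for bilberry, 0.593 for delphinidin and 0.342 for cyanidin. On the log2 scale these are -2.20 ± 0.093 (9 spots), -2.35 ± 0.054 (9 spots), -0.75 ± 0.043 (10 spots) and -1.55 ± 0.023 (8 spots). The delphinidin spots were above those of every other array, the cyanidin spots were above those of DMSO and bilberry, and the spots of DMSO and bilberry overlapped. As for Igf1, no share of all probes spotted 10 times is given beside this, and the spots do not cover the spread between cultures.

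The log2 ratios of this Igf2 probe to DMSO were -0.15 for bilberry (0.04 after normexp correction), 1.45 for delphinidin and 0.65 for cyanidin. With delphinidin the level was 2.72-fold that with DMSO, and 0.389% of the measured probes had a log2 ratio as high. The single spot of the other Igf2 probe, A_51_P516833 (142460600 to 142460659), lies 354 bases away. Its levels were 0.0608 for DMSO, 0.0344 for bilberry, 0.112 for delphinidin and 0.0646 for cyanidin. Its log2 ratios were -0.82 for bilberry (0.09 after normexp), 0.88 for delphinidin and 0.09 for cyanidin (-0.05 after normexp). The delphinidin value was 0.43 after normexp, and it passed 2-fold after quantile normalization (1.01) and under spike-in scaling (1.11). Under the main scaling the 2 probes thus shared the highest level with delphinidin and the lowest with bilberry, but this second probe did not pass 2-fold.

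H19, a noncoding RNA, is the imprinted neighbour of Igf2, and its brightest probe lies 74871 bases from the Igf2 probe on mm8. Its levels were 0.969 for DMSO, 1.14 for bilberry, 2.38 for delphinidin and 1.76 for cyanidin. The log2 ratios to DMSO were 1.29 with delphinidin and 0.86 with cyanidin, and 0.23 with bilberry (-1.37 scaled to the spike-ins). Its other probe gave 1.26, 0.79 and 0.13 (-1.47 scaled to the spike-ins). As for Igf2, the delphinidin array was the highest and the cyanidin array the second highest on both H19 probes.

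Igf1r encodes the signaling receptor for both ligands. Its probe A_51_P318365 (chromosome 7, 68100183 to 68100242) had levels of 1.07 for DMSO, 0.923 for bilberry, 0.955 for delphinidin and 0.896 for cyanidin. Probe A_51_P474538 (68105625 to 68105684) was at 1.52, 1.60, 1.56 and 1.59, which was the smallest span over the 4 arrays among the 17 probes, 0.073 on the log2 scale. Probe A_52_P634111 (68101127 to 68101186) was at 0.210, 0.219, 0.218 and 0.192. These 3 probes lay within 0.26 of DMSO on the log2 scale in every treatment, under the main scaling.

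The remaining Igf1r probe, A_52_P668647 (68061142 to 68061201), lies 5′ of the others on the strand of the gene and had a wider span. Its levels were 0.188 for DMSO, 0.250 for bilberry, 0.150 for delphinidin and 0.134 for cyanidin. It had log2 ratios of 0.41 for bilberry (-1.19 scaled to the spike-ins), -0.32 for delphinidin and -0.49 for cyanidin, so it gave a span of 0.90. The array's annotation assigns it to a cDNA clone, and the other 3 to the RefSeq transcript. Spike-in scaling also turned the bilberry ratios of A_51_P474538 and A_52_P634111 from 0.07 to -1.53 and from 0.06 to -1.54. It also turned the delphinidin ratio of A_51_P318365 from -0.16 to 0.07 and the cyanidin ratio of A_52_P634111 from -0.13 to 0.04.

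Igf2r, the clearance receptor for IGF2, had 1 probe (chromosome 17, 12525745 to 12525755, where the file lists only part of the probe). Its level was 35.8 for DMSO, 40.4 for bilberry, 36.7 for delphinidin and 30.0 for cyanidin. The log2 ratios were 0.17 for bilberry (-0.08 after quantile normalization, and -1.43 scaled to the spike-ins), 0.04 for delphinidin and -0.25 for cyanidin. Between the 4 levels the span was 0.43, and 66.1% of all probes well above background on all 4 arrays had as large a span.

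Igfbp2 encodes a secreted binding protein with a preference for IGF2, made by white preadipocytes and by liver. Its single probe (chromosome 1, 72785310 to 72785369, plus strand) had a level of 0.240 for DMSO, 0.0616 for bilberry, 0.0716 for delphinidin and 0.0695 for cyanidin. The 3 treated levels lay within 0.22 of each other on the log2 scale, and the DMSO level was above all of them. Against DMSO, the log2 ratios of Igfbp2 were -1.96 for bilberry, -1.74 for delphinidin and -1.79 for cyanidin. As low a ratio was found in 1.15%, 0.380% and 0.360% of measured probes. Normexp correction gave -0.97, -1.18 and -1.19, so the bilberry value no longer passed 2-fold there. Unscaled, the processed signal was 206 with DMSO and 35.5 for bilberry, 72.2 for delphinidin and 70.6 for cyanidin.

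Igfbp5, a binding protein that is stored in the extracellular matrix, is the neighbour of Igfbp2 on the opposite strand, and its probe A_52_P281702 (chromosome 1, 72791462 to 72791521) lies 6092 bases from the Igfbp2 probe. Its levels were 0.430 for DMSO, 0.230 for bilberry, 0.355 for delphinidin and 0.438 for cyanidin. The log2 ratios were -0.90, -0.28 and 0.02. Under the main scaling the array with the lowest level was thus bilberry for both neighbours, although after normexp correction the bilberry ratio of Igfbp2 (-0.97) was above those of the other treatments, while cyanidin was close to DMSO for Igfbp5 and to the other treatments for Igfbp2. The other Igfbp5 probe, at 72793999 to 72794058, was not well above background with any treatment or with DMSO.

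Igfbp6 encodes the binding protein with the strongest preference for IGF2 over IGF1. Its single probe (chromosome 15, 101977366 to 101977426, plus strand) had a level of 0.500 for DMSO, 1.12 for bilberry, 1.15 for delphinidin and 1.09 for cyanidin. The treated levels lay within 0.082 of each other on the log2 scale, and DMSO was below all of them. The log2 ratios were 1.17 for bilberry (-0.44 scaled to the spike-ins), 1.21 for delphinidin and 1.12 for cyanidin. As high a ratio was found in 2.47%, 0.607% and 0.470% of measured probes.

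Igfbp3, the main carrier of IGFs in the circulation, had probes that disagreed. Probe A_52_P253179 (chromosome 11, 7106594 to 7106653) had levels of 0.308 for DMSO, 0.246 for bilberry, 0.412 for delphinidin and 0.205 for cyanidin. Its log2 ratios to DMSO were -0.33, 0.42 and -0.59. Probe A_51_P228472 (7108469 to 7109478) was dim, at 0.0260, 0.0395, 0.0224 and 0.0209. It gave 0.60 for bilberry (below 0 when scaled to the spike-ins), -0.22 for delphinidin (0.02 scaled to the spike-ins) and -0.31 for cyanidin. The sign with bilberry and with delphinidin thus differed between the 2 probes.

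Igfbp4, a binding protein that inhibits IGF action until PAPP-A cleaves it, had 2 bright probes on chromosome 11. Probe A_51_P398971 (98864367 to 98864426) was at 8.61 for DMSO, 7.89 for bilberry, 6.71 for delphinidin and 6.25 for cyanidin. Probe A_52_P257502 (98868110 to 98868169) was at 14.3, 12.7, 11.2 and 11.2. Both were highest with DMSO, and their log2 ratios ran from -0.13 to -0.46, short of 2-fold. Igfbp7, a related protein that binds IGFs weakly, was at 113 for DMSO, 120 for bilberry, 107 for delphinidin and 106 for cyanidin on its probe (chromosome 5, 78424105 to 78424164). Its log2 ratios were 0.08 (-0.30 after quantile normalization, and -1.52 scaled to the spike-ins), -0.08 (0.16 scaled to the spike-ins) and -0.09 (0.08 scaled to the spike-ins).

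**Figure D3:**
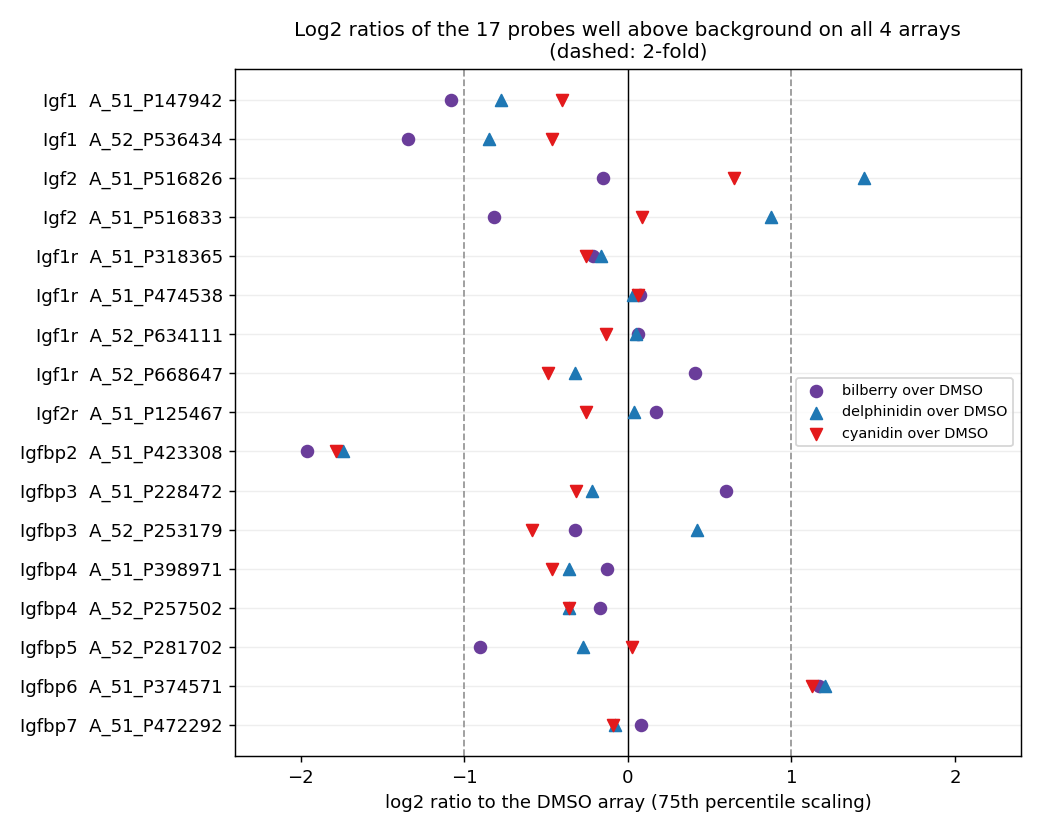
Log2 ratio to the DMSO array (horizontal axis, 75th percentile scaling) of the 17 probes well above background on all 4 arrays (vertical axis), with circles for bilberry, upward triangles for delphinidin and downward triangles for cyanidin, 1 array each. Dashed lines mark 2-fold; Igfbp2 lies to the left of them in all 3 treatments and Igfbp6 to the right, while the 3 symbols of each Igfbp4 and Igfbp7 probe lie between them.

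Bilberry over DMSO addressed the whole extract, and 4 of 17 measured member probes passed 2-fold. Igfbp6 was higher, against 4.29% of all 21544 measured probes, and the 2 Igf1 probes and Igfbp2 were lower, against 6.96%. The median log2 ratio was -0.15 over the member probes and 0.14 over all probes. With delphinidin, 3 of 17 passed: the Igf2 probe A_51_P516826 and Igfbp6 were higher, against 1.08% of 22886 probes, and Igfbp2 was lower, against 1.85%. Here the medians were -0.16 and -0.04. With cyanidin 2 of 17 passed, Igfbp6 higher against 0.589% of 22769 probes and Igfbp2 lower against 2.25%, with medians of -0.26 and -0.02. The 3 comparisons share the DMSO array, so a deviation of that array enters each of them. The DMSO level was above all 3 treated levels at 6 of the 17 probes and below all 3 at 2, where these shares were 25.0% and 29.5% of all 21441 probes well above background on all 4 arrays.

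Taking the genes in place of the probes, each by its brightest probe, 3 of 10 passed for bilberry, 3 for delphinidin and 2 for cyanidin, where 11.4%, 3.24% and 3.05% of all measured genes did so by this rule. The gene medians were -0.16 with bilberry, where the median of all genes was 0.17, then -0.02 against -0.05 with delphinidin and -0.17 against -0.02 with cyanidin. The span of a probe, the highest minus the lowest of its 4 log2 levels, had a median of 0.92 over the 17 probes and 0.56 over all probes. Spans over 1 were found at 7 of the 17, which is 41.2%, against 17.6% of all probes. They were 1.96 for Igfbp2, 1.70 and 1.60 for Igf2, 1.34 and 1.08 for Igf1, 1.21 for Igfbp6 and 1.01 for the Igfbp3 probe A_52_P253179.

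**Figure D4:**
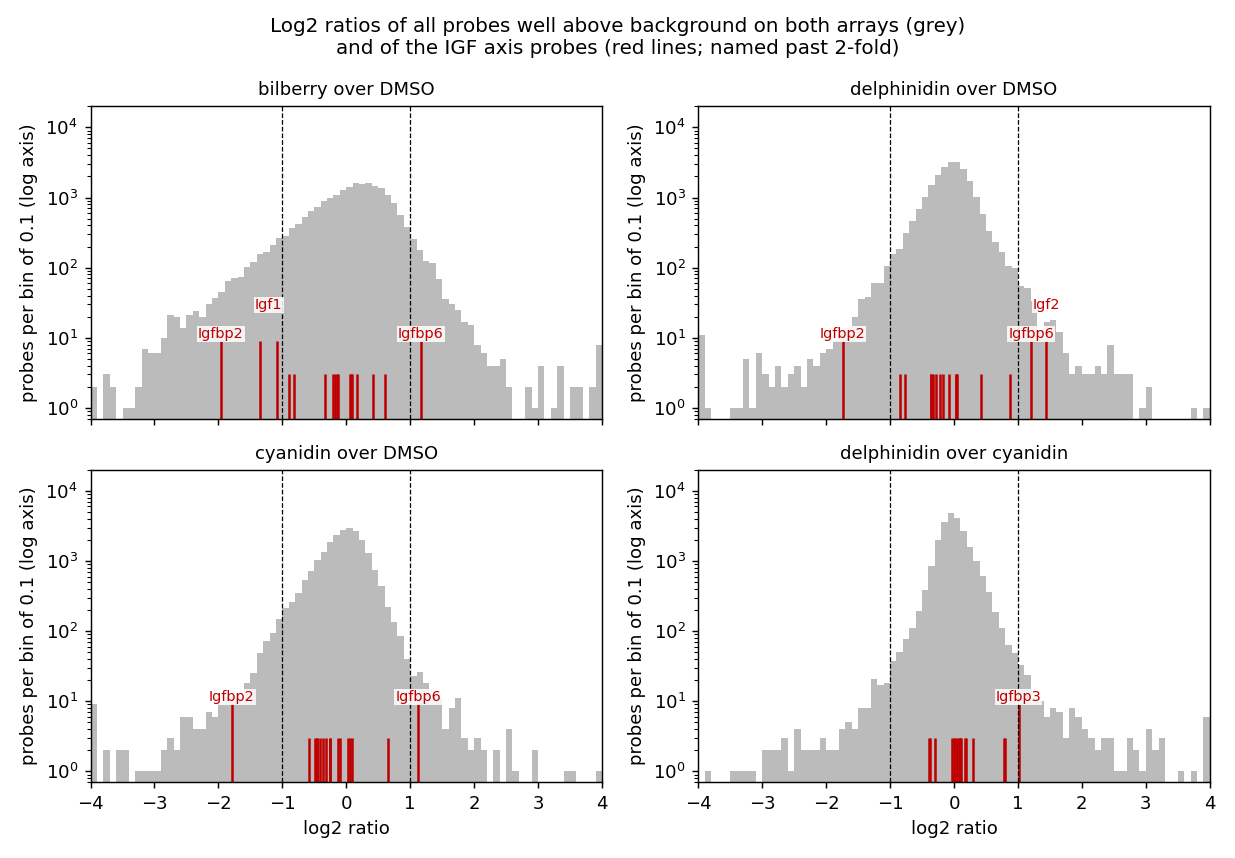
Number of probes per bin of 0.1 in the log2 ratio (vertical log axis) against the log2 ratio (horizontal axis) for each of the 4 comparisons, with grey bars for all probes well above background on both arrays and ratios beyond 4 counted in the outermost bins. Red lines are the 17 member probes, longer and named where they pass 2-fold (dashed), and their height has no meaning; the grey distribution is widest with bilberry.

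Delphinidin and cyanidin are anthocyanidins that differ by a hydroxyl group, which delphinidin carries in addition on the B ring, and they were given at the same dose for the same time. This was the only pair of pure compounds, and with 1 array each the difference has no interval. Only the Igfbp3 probe A_52_P253179 passed 2-fold, higher with delphinidin (0.412 against 0.205, a log2 ratio of 1.01), where 0.672% of 23212 probes were higher and 0.504% lower past 2-fold, 1.18% in all. By the brightest probe of each gene 1 of 10 passed, against 0.693% of all genes higher, 0.599% lower and 1.29% in all. It fell short of 2-fold after normexp correction (0.86) and after quantile normalization (0.99), and the dimmer Igfbp3 probe was at 0.10 (-0.01 after normexp). The median was 0.09 over the member probes and -0.01 over all.

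The ligands were the next furthest apart between the anthocyanidins. The 2 Igf2 probes were at 0.80 and 0.79, and a ratio as high was found in 1.20% and 1.22% of measured probes. Both Igf1 probes were lower with delphinidin, at -0.37 and -0.38, and a ratio as low was found in 4.90% and 4.55%. For the probes with 10 spots the 2 arrays did not overlap in either ligand. These spots are copies of 1 labeled RNA per array. No share of all probes spotted 10 times is given beside this, so it is not read as a result about the ligands. The values of Igfbp2 (0.04, or -0.01 after quantile normalization) and Igfbp6 (0.08) were close to 0, which with 1 array each does not show that the compounds act alike on them. The extract was given by weight and the pure compounds by molarity, so their values are set side by side and not compared by dose.

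**Figure D5:**
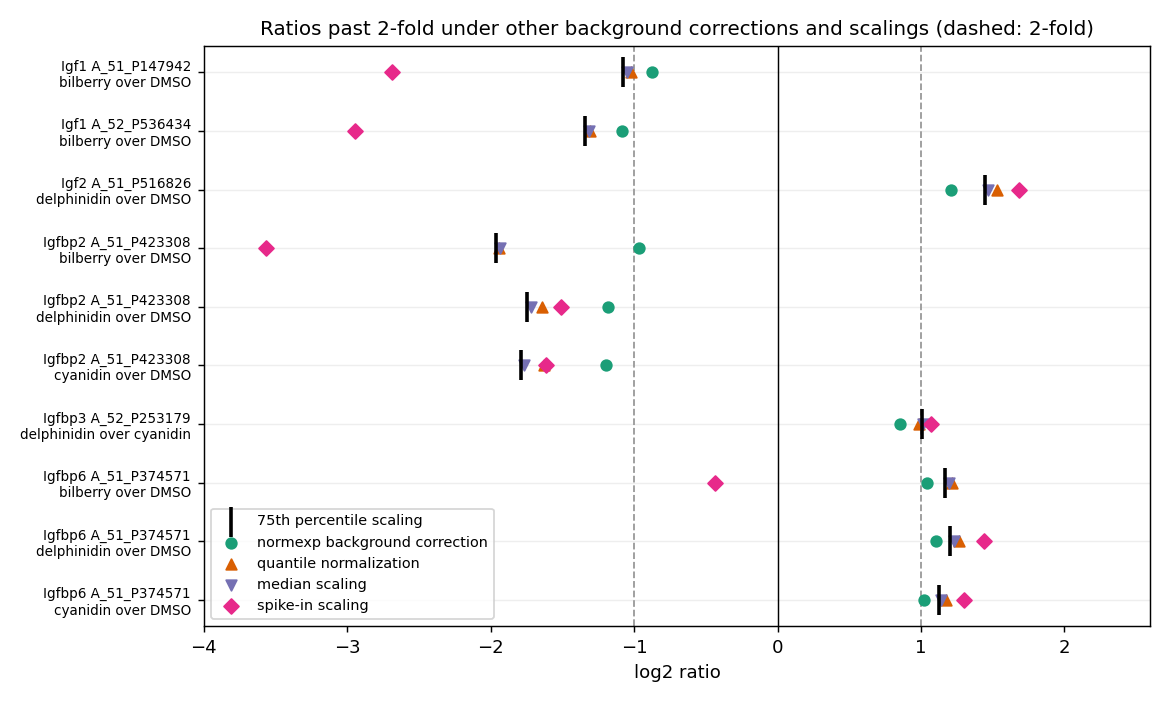
Log2 ratio (horizontal axis) of each member value past 2-fold (vertical axis) under 75th percentile scaling (black bars), normexp background correction (circles), quantile normalization (upward triangles), median scaling (downward triangles) and spike-in scaling (diamonds), 1 array per group. Dashed lines mark 2-fold; the bilberry value of Igfbp6 is the only one that changes sign, at -0.44 under spike-in scaling.

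Other genes of the axis were taken from a list of 58, of which 57 had a probe with a value on all arrays. With bilberry 48 were measured, and 2 were higher and 4 lower past 2-fold, against 4.71% and 6.65% of all genes. The median was 0.21 over the list and 0.17 over all genes. With delphinidin 49 were measured, 2 higher and 1 lower, against 1.19% and 2.06%, with medians of 0.01 and -0.05. With cyanidin 0 of 49 passed, against 0.675% higher and 2.38% lower, with medians of 0.01 and -0.02. For delphinidin over cyanidin 51 were measured, with 0 higher and 1, Igfals, lower, against 0.693% and 0.599% of all genes, and with medians of 0.02 and -0.02. These counts are near those that the background shares give for lists of this size.

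Among the extracellular partners, Pappa encodes PAPP-A, the protease that cleaves IGFBP4 and frees its IGF. Its brightest probe was at 5.32 for DMSO, 1.86 for bilberry, 3.11 for delphinidin and 2.99 for cyanidin. The log2 ratios were -1.52, -0.78 and -0.83, and its other probe gave -2.58 (-1.24 after normexp), -0.88 and -1.31 (-0.98 after normexp), so both were highest with DMSO. Wisp2, a secreted CCN protein with an IGF-binding protein domain, was at 0.875, 0.348, 0.326 and 0.545. Its log2 ratios were -1.33 for bilberry, -1.42 for delphinidin and -0.68 for cyanidin. Igfals, the acid-labile subunit of circulating IGF complexes, was measured only with delphinidin (0.0120) and cyanidin (0.0455). It was 3.78-fold lower with delphinidin, a log2 ratio of -1.92, which fell short of 2-fold after normexp correction (-0.51). It was chosen after its values were seen.

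Of the receptors and adaptors, Insr, the insulin receptor, was at 0.0347 for DMSO, 0.0259 for bilberry, 0.0225 for delphinidin and 0.0288 for cyanidin. The log2 ratios were -0.42 (0.21 after normexp), -0.63 and -0.27. This single Insr probe was dim. The lowest level well above background was 0.0151 on the DMSO array, 0.0225 for bilberry, 0.0108 for delphinidin and 0.0107 for cyanidin. The brightest probe of Irs1, the adaptor shared by the insulin and IGF1 receptors, was at 5.57, 5.96, 6.38 and 5.50, within 0.20 of DMSO on the log2 scale under the main scaling. Irs2 had no probe with a value on all arrays. Irs4, another adaptor, was at 0.185 with DMSO and 0.442 with bilberry, a log2 ratio of 1.26 (-0.35 scaled to the spike-ins), and its dimmer probe was not well above background. The 3 probes of Grb10, which restrains these receptors, stayed near background on all 4 arrays.

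Within the PI3K and AKT branch, Pik3ca and Pik3cb encode catalytic subunits of PI3 kinase and Foxo3 a transcription factor that AKT inactivates. The brightest Pik3ca probe was at -1.27 with bilberry on the log2 ratio scale, but its other probe was at -0.46. Pik3cb was at 1.32 with delphinidin (0.84 after normexp), 0.46 with cyanidin and 0.93 with bilberry (1.04 after quantile normalization, and -0.68 scaled to the spike-ins). The brightest Foxo3 probe was at 1.30 with bilberry (0.83 after normexp, and -0.30 scaled to the spike-ins), and its other probe was at 0.26 (-1.34 scaled to the spike-ins). In the growth hormone input to Igf1, Ghr, the growth hormone receptor, was at 24.1 for DMSO, 23.6 for bilberry, 26.7 for delphinidin and 26.2 for cyanidin. Jak2, the kinase that this receptor uses, was at 3.38, 1.38, 1.97 and 2.41. Its log2 ratio was -1.29 with bilberry, and the other Jak2 probe was at -0.66 (0.14 after normexp).

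The genes with patterns most like those of the 2 members with the widest spans were found by the root mean square difference of the centred log2 levels over the 4 arrays, among 19506 named probes. For Igfbp2 they were Dhrs9 (0.058), 1700086P04Rik (0.128) and Emilin2 (0.137). Dhrs9 encodes a short-chain dehydrogenase, and its log2 ratio to DMSO was -2.12 for bilberry, -1.79 for delphinidin and -1.83 for cyanidin. For the Igf2 probe A_51_P516833 they were Klhdc1 (0.100), Atad2 (0.118) and Smc2 (0.121). This Igf2 probe is dim and had a single spot. Its bilberry ratio of -0.82 was 0.09 after normexp correction, and the other Igf2 probe gave -0.15, so these neighbours rest on an unsteady value. Smc2, a subunit of condensin, had log2 ratios of -0.82, 1.04 and 0.38. With 4 arrays such likeness is a description only.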

How the data were processed

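Total RNA of 3T3-L1 cells on day 2 was labeled with 1 dye by the authors and hybridized to 4 Agilent Whole Mouse Genome arrays. The deposited files hold, per spot, a processed intensity from which the Feature Extraction software (version 9.5.1.1 per the file headers) had subtracted the background. The series-wide table that was deposited repeats this intensity, with a largest relative difference of 0. Its scale is linear, its columns had medians of 25.2 to 40.7, and it is not centred.

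Intensities were scaled to the 75th percentile over the 43379 non-control spots of each array and then taken as log2. Between 701 and 875 spots on an array that the software marked as uneven or outlying were not used, and the others were averaged for each probe, which left 39373 of 41174 probes. Gene names and mm8 coordinates are those of the files, and 24375 probes were also named through RefSeq accessions on GRCm38.p6, where no further probe named a member. Promoters came from RefSeq on GRCm38.p6, and every member matched.

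With 1 array per group no test was made. For a bound, the brighter level was divided by the dim probe's level or, if higher, by the lowest level that the dim array had among probes well above background. The number of arrays limits the precision, and the median SD of 10 replicate spots was 0.034 to 0.039 on the log2 scale. The alternatives were normexp background correction (offset 50, limma 3.58.1 in R 4.3.3), quantile normalization, median scaling, spike-in scaling, a percentile with control spots, marked spots kept, 2 other detection filters, 1.5-fold and 3-fold thresholds, the brightest probe of each gene and the deposited table. On simulated arrays of 39373 probes, 191 of 191 planted changes were recovered for bilberry over DMSO. The planted changes were larger than the 2-fold threshold, in probes well above background, with noise close to the SD of replicate spots. Full recovery was thus set by these choices and says nothing about changes near 2-fold or about dim probes. This recovery does not cover the spread between cultures, which 1 array per group does not measure. Python 3.11.15, numpy 2.4.6 and pandas 2.3.3 were used.

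Named genes were all members, the genes of the pathway list past 2-fold against DMSO by their brightest probe, Insr, Irs1, Irs2, Pappa, Grb10 and Ghr, and the 3 nearest patterns of 2 members. Igfals and the markers Thy1, Adipoq, Fabp4 and Lpl were named after their values were seen. The members and lists were chosen with earlier results of these data known.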

Additional observations from a re-analysis of the deposited data

How the results depend on the processing

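The counts of member probes past 2-fold depended on the normexp setting, the scaling and the threshold. The normexp setting joins a background correction with an added offset of 50, and the 2 were not tested apart. With bilberry the count was 4 under the main settings, 2 after normexp correction, 16 under spike-in scaling (0 higher and 16 lower), 7 at 1.5-fold and 1 at 3-fold. Of all 21544 probes measured there, 924 were higher and 1499 lower under the main settings, and 434 and 715 after normexp correction. Under spike-in scaling 26 were higher and 17827 lower, so the 16 lower member probes are near the background. With delphinidin the count was 3, then 4 after quantile normalization and 4 under spike-in scaling, where the Igf2 probe A_51_P516833 joined, 6 at 1.5-fold and 1 at 3-fold, and with cyanidin it was 2, then 4 at 1.5-fold and 1 at 3-fold. Of all 22886 probes measured with delphinidin, 247 were higher and 424 lower under the main settings. These counts were 311 and 321 after quantile normalization, and 505 and 237 under spike-in scaling. For delphinidin over cyanidin the count was 1, then 0 after normexp correction, 0 after quantile normalization, 3 at 1.5-fold and 0 at 3-fold. Of all 23212 probes measured there, 156 were higher and 117 lower under the main settings, 51 and 26 after normexp correction, and 132 and 128 after quantile normalization. The member counts at 1.5-fold and 3-fold have no share of all probes beside them, so they are not read as a result about the members. The log2 ratio of Igfbp6 with bilberry reversed from 1.17 to -0.44 under spike-in scaling, and the median span of the member probes moved from 0.917 to 1.88, both because that scaling lowers the whole bilberry array. Of all probes past 2-fold with delphinidin, 36.8% were higher, against 49.2% after quantile normalization and 68.1% under spike-in scaling. With cyanidin these shares were 20.7%, 37.0% and 44.9%, and with bilberry 38.1%, 39.0% and 0.146%. Median scaling, the percentile with control spots and the deposited table each left all 80 member ratios within 0.056 of the main values, as did marked spots kept for 77 of 80. The cause of the other differences was not tested. No paired analysis was possible because each group had 1 array. Signal over background limits the dim probes, and 3 of the 20 gave no ratio to DMSO.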
